A study of Homo sapiens with 10 samples.

Results

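Long noncoding RNA (lncRNA) genes were followed in EndoC-βH1 cells, an established human insulin-producing beta cell line, after knockdown of the splicing factor SRp55, which the gene SRSF6 encodes. The genes were chosen by 2 criteria: a GENCODE gene type of lncRNA and a mean level of at least 0.5 RPKM (reads scaled for transcript length and library depth) over the 10 libraries. Of the 6227 lncRNA genes in the files, 534 met both, out of 26346 genes of every type. The study holds 5 control siRNA and 5 SRp55 siRNA preparations of this line, all numbered 1 to 5, with polyadenylated RNA sequenced on a HiSeq 2000. Each group is therefore 1 cell line treated with 1 siRNA: a control siRNA in the first group and the SRp55 siRNA named siSR#2 in the second. The titles of all 10 libraries also carry the word exposed, without saying to what. The labels name no other treatment. They do not say whether the 5 preparations of a group were separate cultures, so the p-values measure the spread between these preparations only.

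LncRNAs are transcripts that are capped, spliced and often polyadenylated like messenger RNAs but are not known to be translated into a protein. Some act as RNA on chromatin or on proteins, others are the precursors of small RNAs in their introns or exons, such as the small nucleolar RNAs (snoRNAs) that guide modification of ribosomal RNA and the microRNAs that silence messenger RNAs, and for many no function is known. SR proteins such as SRp55 bind exon sequences and help to select splice sites, and lncRNA introns are removed by the same machinery. Small RNAs themselves lie outside these libraries, because the kit favours RNA longer than 200 nucleotides and the library fragments were cut from a gel at 200 base pairs, so only the host transcripts were read.

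The small RNAs show why some of the hosts are of interest in a pancreatic cell, and mature microRNAs inside 4 of them are printed here from RefSeq (GRCh38.p14), 5′ to 3′, with the seed (bases 2 to 8) in capitals. MIR217HG contains miR-217, miR-216a and miR-216b, which are known as pancreas-enriched microRNAs. MIR7-3HG contains 1 copy of miR-7, a microRNA known for its abundance in endocrine cells. H19 contains miR-675, and MIR4435-2HG contains miR-4435. The 6 seeds printed differ from each other.
hsa-miR-217-5p: uACUGCAUcaggaacugauugga
hsa-miR-216a-5p: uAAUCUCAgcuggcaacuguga
hsa-miR-216b-5p: aAAUCUCUgcaggcaaauguga
hsa-miR-7-5p: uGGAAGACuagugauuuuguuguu
hsa-miR-675-5p: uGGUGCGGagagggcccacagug
hsa-miR-4435: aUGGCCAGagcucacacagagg

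The knockdown itself was clear in every preparation. SRSF6 lay between 92.4 and 99.99 RPKM in the control libraries and between 20.96 and 31.1 RPKM in the SRp55 siRNA libraries. Between 61.9 M and 189.8 M reads per library were assigned to genes. The beta cell genes INS (6597 RPKM in control cells) and CHGA (10254 RPKM) were abundant, and the alpha cell hormone GCG reached at most 0.281 RPKM. The markers PPY, PRSS1 and VIM were listed at 0 in all 10 libraries, and PTPRC, the leukocyte marker, reached at most 0.071 RPKM. Whether a listed 0 means an absent RNA or reads that were not assigned to it was not tested. Other markers were present: SST, the delta cell hormone, at 109.8 and 92.2 RPKM in control and SRp55 siRNA cells, the acinar gene CPA1 at 20.9 and 22.2 RPKM, the duct gene KRT19 at 23.7 and 34.9 RPKM and the mesenchymal gene COL1A1 at 1.31 and 3.49 RPKM. None of these 4 passed, and their part in the lncRNA values was not tested.

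The lncRNA genes were a small and uneven part of the transcriptome. Together they held 0.627% ± 0.021 (SD, n = 5) of all summed RPKM in control cells and 0.624% ± 0.022 (SD, n = 5) after SRp55 siRNA. Their median level was 1.49 RPKM, against 13.98 RPKM for the 12644 tested protein-coding genes. Only 62 of the 534 reached 10 RPKM, and 373 reached 1 RPKM. The 15 most abundant held 36.5% of the summed lncRNA RPKM and the 50 most abundant 59.8%. The files list a median of 2 transcripts for each lncRNA gene and 7 for each tested gene, and 42.9% of the lncRNA genes (229 genes) have a single listed transcript, against 5.66% of protein-coding genes. At the lower limit, PNN-AS1 lay just outside at a mean of 0.499 RPKM and ZNF22-AS1 just inside at 0.5003 RPKM.

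By name, the 534 genes fall into 129 long intergenic genes (LINC), 62 named as divergent transcripts of a neighbour (-DT), 58 named as antisense (-AS), 17 microRNA hosts, 16 snoRNA hosts, 56 with another symbol, 1 named as overlapping (-OT) and 195 without a symbol. The genes without a symbol were the lowest and simplest of these groups, with a median of 1.26 RPKM and 1 listed transcript. The snoRNA hosts were the highest, with a median of 23.3 RPKM, and 12 of the 16 reached 10 RPKM. By position on the GRCh37 coordinates of the files, 116 overlapped a protein-coding gene on the other strand, 39 overlapped one on the same strand, 74 started divergently within 1 kb of a coding gene's start, 45 lay within 10 kb downstream of one and 260 lay apart. The sources used here do not state that strand was used in counting, so reads of a gene and of its partner on the other strand cannot be told apart.

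The most abundant lncRNA was MEG3, the maternally expressed gene of an imprinted region on chromosome 14 (101245747 to 101327368). Its level was 169, 148, 140, 179 and 257 RPKM in control libraries 1 to 5 and 159, 130, 158, 149 and 301 RPKM in SRp55 siRNA libraries 1 to 5. The fifth preparation was the highest of both groups, and the groups overlapped over most of their range. MEG3 alone held 6.18% of the summed lncRNA RPKM. NORAD, a long unspliced RNA that binds PUMILIO proteins in the cytoplasm, followed at 157 RPKM ± 11.7 in control against 145 RPKM ± 13.6 in SRp55 siRNA cells (SD, n = 5). Its log2 fold change was -0.23 ± 0.11 (SE) beside the median tested gene and -0.12 as deposited. The adjusted p was 0.57 as deposited and 0.14 under median-of-ratios scaling. All fold changes here are SRp55 siRNA over control siRNA on the log2(RPKM + 0.5) scale, which understates changes of low genes, and have the median tested gene's value of 0.11 subtracted. Adjusted p-values come from limma with Benjamini-Hochberg adjustment over all 13630 tested genes, and they test each gene's change before that subtraction. A printed fold change and its adjusted p therefore refer to different baselines. Median-of-ratios scaling, under which the median gene lay at 0.01, nearly removes this gap.

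Of the 15 most abundant lncRNA genes, 1 passed the adjusted p of 0.05. That gene, LINC02432, is a long intergenic RNA on chromosome 4 (142240604 to 142253772). It measured 33.2, 24.2, 34.6, 50.6 and 28.6 RPKM in the control libraries and 59.8, 69.0, 85.2, 86.1 and 54.7 RPKM in the SRp55 siRNA libraries. Every SRp55 siRNA library was above every control library. The log2 fold change was 0.95 ± 0.20 (SE), with an adjusted p of 0.017 from limma, and it was higher in 5 of 5 numbered pairs. The other 14 did not pass: NORAD, MEG3, SNHG32, SNHG6, GAS5, H19, DSCR8, DANCR, ZNF667-AS1, SNHG8, MIR7-3HG, LINC00667, LINC00958 and ENSG00000269987.

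**Figure D1:**
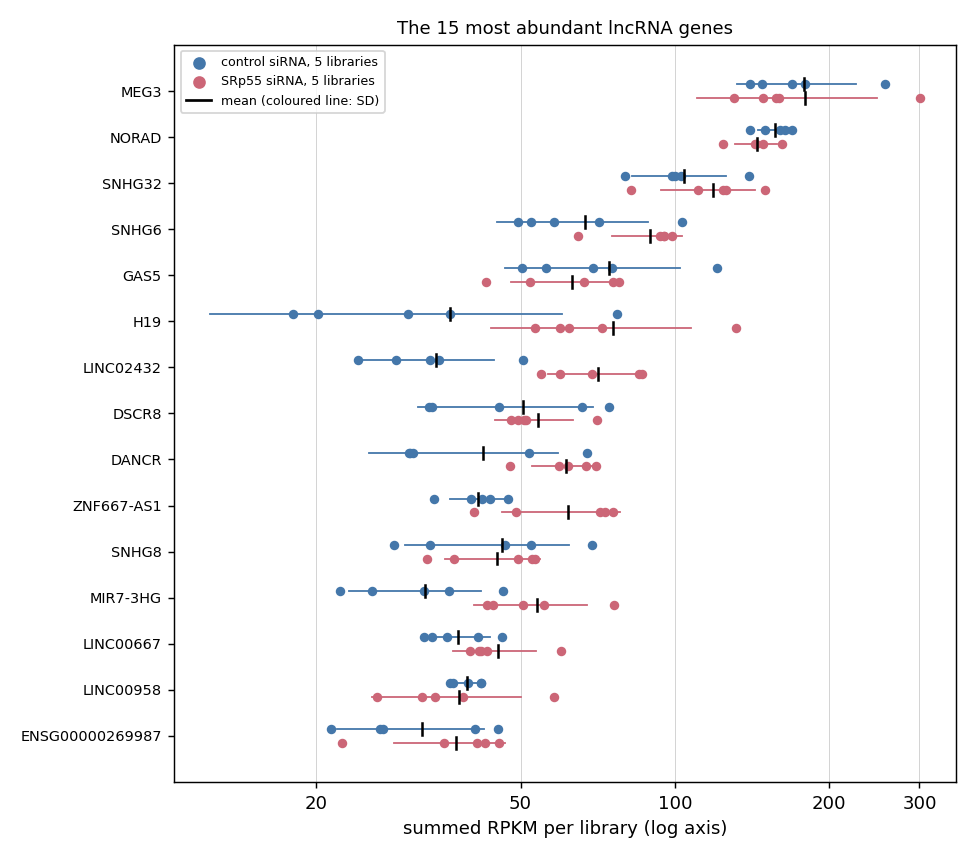
Summed RPKM of the 15 most abundant lncRNA genes in each library (horizontal log axis, 1 point per library; black tick, group mean; coloured line, SD over 5 libraries). LINC02432 is the gene whose control and SRp55 siRNA points do not overlap; MEG3 has its highest value, 301 RPKM, in SRp55 siRNA library 5, and H19 has 1 control library at 77.1 RPKM.

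H19, an imprinted RNA transcribed near IGF2, lies on chromosome 11 (2016406 to 2022700) and varied widely within both groups. It measured 20.2, 36.4, 17.96, 77.1 and 30.2 RPKM in the control libraries and 59.7, 62.1, 53.4, 131.7 and 72.2 RPKM in the SRp55 siRNA libraries. Control 4 reached the range of the SRp55 siRNA group, while the other 4 controls lay below it. H19 was higher in 5 of 5 numbered pairs, with a log2 fold change of 1.06 ± 0.38 (SE). The adjusted p was 0.10 without the pairing, 0.013 with the replicate number as a block and 0.016 without control 4. IGF2, the insulin-like growth factor whose imprinting is linked to H19, lay at 295 RPKM ± 32.6 in control against 403 RPKM ± 59.1 in SRp55 siRNA cells (SD, n = 5), with a log2 fold change of 0.33 and an adjusted p of 0.083 from limma.

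MIR7-3HG, the miR-7 host on chromosome 19 (4769117 to 4772545), measured 36.2, 32.4, 25.7, 46.1 and 22.2 RPKM across the controls and 76.0, 55.7, 50.6, 43.0 and 44.3 RPKM across the SRp55 siRNA libraries. Control 4 lay above SRp55 siRNA 4 and 5, and all other controls lay below every SRp55 siRNA library. The log2 fold change was 0.63 ± 0.21 (SE), and the adjusted p from limma was 0.075. It was 0.011 on summed reads, 0.037 under median-of-ratios scaling, 0.052 with the replicate block and 0.029 without control 4. ZNF667-AS1, antisense to a zinc finger gene, did not pass at an adjusted p of 0.12 but did with the replicate block (0.031), on summed reads (0.038) and without SRp55 siRNA 5 (0.035).

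Across all 534 lncRNA genes, 20 passed the threshold, which is 3.75%, against a background of 5.02% of all tested genes. The 20 divide into 16 higher (3.00% of the lncRNA genes, background 3.76%) and 4 lower (0.75%, background 1.25%) in SRp55 siRNA cells. With no adjustment, 103 lncRNA genes (19.3%) had a p under 0.05, against 21.9% of all tested genes. The median log2 fold change of the 534 was -0.02, and 252 lay above the median tested gene. Groups did not overlap for 31 of the 534 (5.81%, background 7.92%). These shares lie at or below those of all tested genes.

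The split of the calls moved with scaling and with pairing. Median-of-ratios scaling gave 30 calls (5.62%, background 6.85%), 16 higher (background 3.18%) and 14 lower (background 3.67%). Summed reads gave 63 (11.8%, background 17.2%), 33 higher (background 7.3%) and 30 lower (background 9.87%). The replicate block gave 48 (8.99%, background 13.1%), 32 higher (background 9.39%) and 16 lower (background 3.7%). Of the 20 calls, 18, 19 and 19 were shared with these 3 alternatives, all in the same direction. With no filter on low genes, SSTR5-AS1, ENSG00000261720, ENSG00000271830, LINC01806 and PRR29-AS1 were lost. PRR29-AS1 was also lost on summed reads and, with MAP2K5-DT, under median-of-ratios scaling, and SNHG1 was lost with the block. Without control 4 there were 35 calls (6.55%, background 7.96%), and without control 3 there were 9 (1.69%, background 2.25%).

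**Figure D2:**
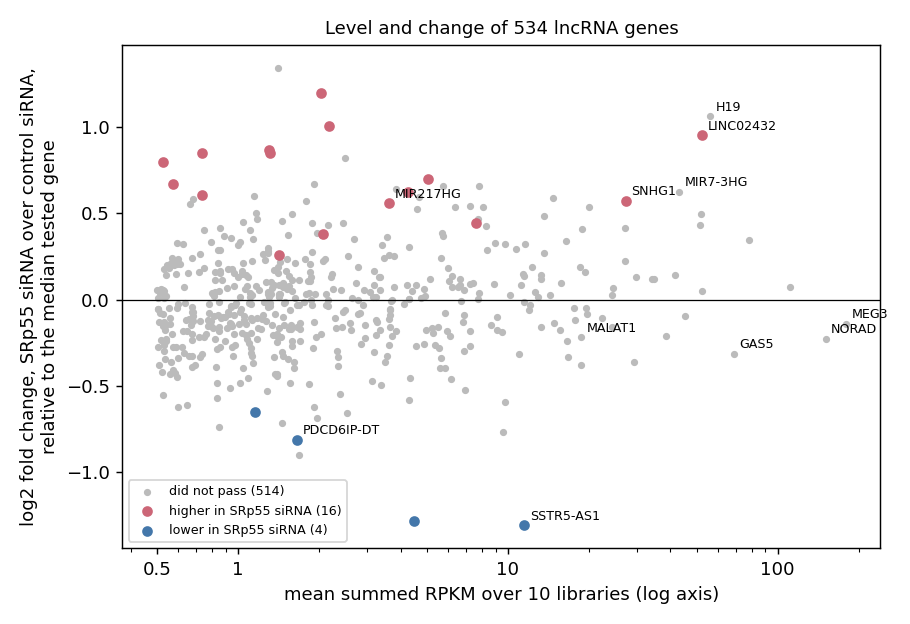
Mean summed RPKM over 10 libraries (log axis) and log2 fold change relative to the median tested gene for each of the 534 lncRNA genes, with the 16 higher and 4 lower calls coloured. The calls lie at every level from 0.5 RPKM to above 50 RPKM, and H19 at 1.06 is among the widest changes that did not pass.

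Of the 20 calls, 8 kept their side of the threshold in every alternative in which they were tested. They were 7 genes that rose (ENSG00000238034, LINC02432, LINC01918, MIR4435-2HG, LINC01497, LINC01572 and MIR217HG) and 1 that fell (PDCD6IP-DT). For LINC01497 and LINC01572 this is limited by how the genes were chosen, as given below. Neither was tested at a minimum of 1 RPKM. ENSG00000238034, an intergenic gene with 1 listed transcript on chromosome 20 (21928285 to 21951421), had the lowest adjusted p. It measured 1.08, 1.33, 0.992, 0.582 and 0.850 RPKM across the controls and 3.92, 3.49, 2.84, 2.56 and 2.68 RPKM across the SRp55 siRNA libraries. The groups were separated by a wide gap, from 1.33 to 2.56 RPKM. Its log2 fold change reached 1.20 ± 0.16 (SE), with an adjusted p of 0.0025 from limma, on a mean of 72.0 estimated reads in control and 253.6 in SRp55 siRNA libraries.

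Among these 8 were 2 microRNA hosts. MIR217HG (chromosome 2, 56190326 to 56274461), whose microRNAs are printed above, measured 2.57, 2.54, 3.36, 2.83 and 2.19 RPKM across the controls and 4.26, 4.84, 4.87, 5.03 and 3.80 RPKM across the SRp55 siRNA libraries. All SRp55 siRNA libraries were above all controls, with a log2 fold change of 0.56 ± 0.12 (SE) and an adjusted p of 0.015 from limma. Of the acinar and duct markers, CPA1 lay at -0.07 on the log2 scale (adjusted p = 0.95) and KRT19 at 0.37 (adjusted p = 0.27), PRSS1 was listed at 0 throughout and CFTR reached at most 0.159 RPKM. MIR4435-2HG (chromosome 2, 111965353 to 112252677), with 18 listed transcripts, measured 0.674, 0.570, 0.451, 0.931 and 1.03 RPKM across the controls and 2.54, 1.62, 1.30, 1.80 and 2.22 RPKM across the SRp55 siRNA libraries. It rose by 0.85 ± 0.18 (SE) on the log2 scale with an adjusted p of 0.015. Both hosts were higher in 5 of 5 numbered pairs.

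The other calls of this kind were low. LINC01918 (chromosome 2) rose from 0.738 ± 0.331 to 1.88 ± 0.073 RPKM (SD, n = 5), a log2 fold change of 0.87 with an adjusted p of 0.0082. LINC01497 (chromosome 17) rose from 0.217 ± 0.140 to 0.841 ± 0.234 RPKM, with an adjusted p of 0.011. LINC01572 (chromosome 16) rose from 0.299 ± 0.165 to 0.849 ± 0.094 RPKM, with an adjusted p of 0.018. LINC01497 and LINC01572 reached the minimum of 0.5 RPKM through the SRp55 siRNA group only, as did PRR29-AS1 and ENSG00000235779. The choice of genes by their mean level thus favoured a rise in these 4. Over all 534 genes, 32 reached the minimum in the SRp55 siRNA mean only (4 called), 18 in the control mean only (0 called) and 484 in both (16 called). The called share of all tested genes was 5.02%. LINC01497 had as few as 6 estimated reads in 1 library.

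**Figure D3:**
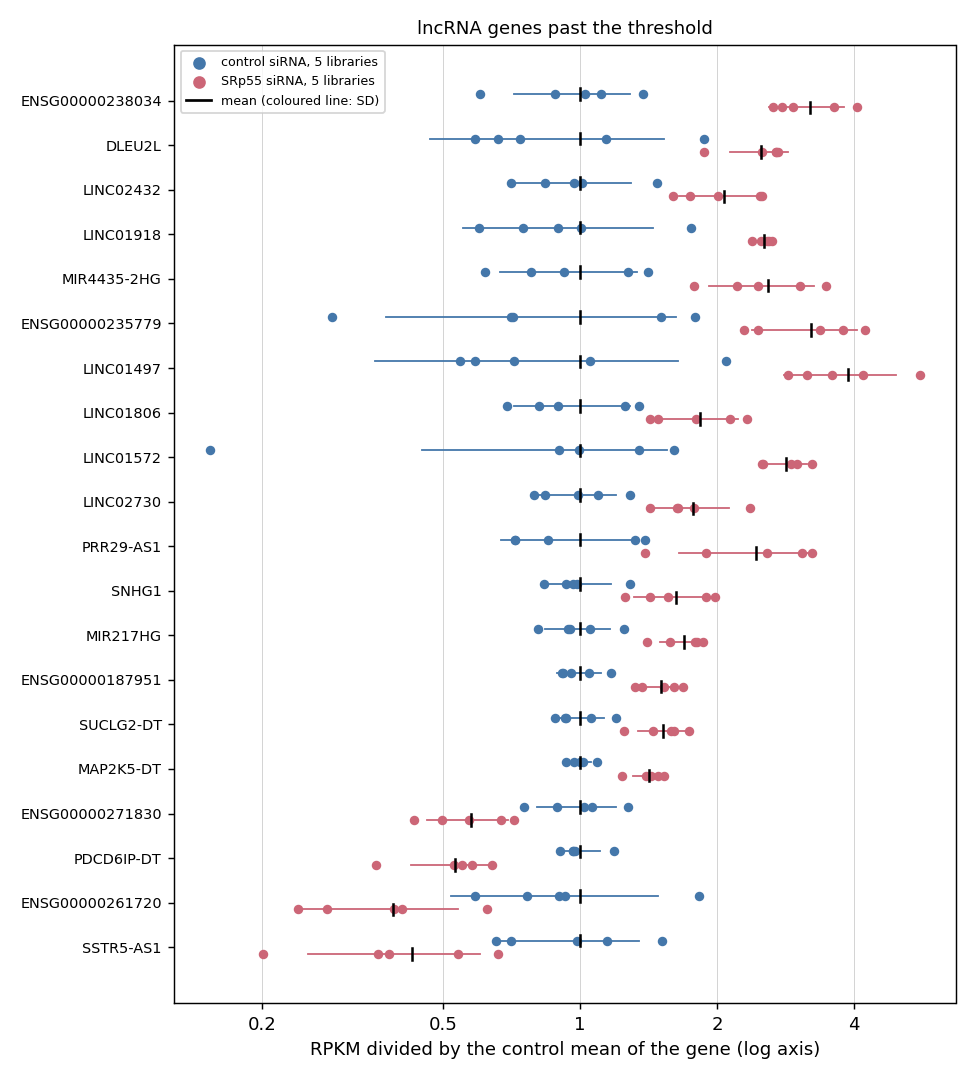
RPKM of the 20 called lncRNA genes in each library, divided by the control mean of the gene (log axis, 1 point per library; black tick, group mean; coloured line, SD over 5 libraries), ordered by log2 fold change. SRp55 siRNA points lie to the right of the control points for the upper 16 genes and to the left for the lower 4, with a small overlap for DLEU2L, PRR29-AS1, SNHG1, ENSG00000261720 and SSTR5-AS1.

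The 4 genes that fell include an overlapping pair at the gene of somatostatin receptor 5. SSTR5-AS1 (chromosome 16, 1114093 to 1128707, minus strand) overlaps SSTR5 (1122756 to 1131454) on the other strand. It measured 24.4, 18.5, 11.4, 15.9 and 10.5 RPKM across the controls and 10.6, 8.68, 6.11, 5.80 and 3.24 RPKM across the SRp55 siRNA libraries. SSTR5-AS1 was lower in 5 of 5 numbered pairs, and the groups met at control 5 and SRp55 siRNA 1. The log2 fold change was -1.31 ± 0.30 (SE), with an adjusted p of 0.046 from limma and 0.0081 with the replicate block. The call held only without SRp55 siRNA 1: leaving out any other library gave 0.056 to 0.11.

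ENSG00000261720 is a gene with 1 listed transcript (1115240 to 1116502, plus strand) inside the span of SSTR5-AS1. It measured 11.8, 5.81, 3.80, 6.005 and 4.95 RPKM across the controls and 4.05, 2.63, 1.80, 2.52 and 1.55 RPKM across the SRp55 siRNA libraries, and control 3 lay below SRp55 siRNA 1. Its log2 fold change was -1.28 ± 0.28 (SE), with an adjusted p of 0.041 from limma. The call was lost without control 1, 2 or 5 or SRp55 siRNA 2, 3, 4 or 5 (0.062 to 0.094). SSTR5, the receptor itself, measured 5.71, 7.22, 4.90, 4.17 and 3.19 RPKM across the controls and 8.75, 1.76, 1.33, 1.87 and 1.18 RPKM across the SRp55 siRNA libraries. SRp55 siRNA 1 was the highest of all 10 libraries and the other 4 were below every control, and SSTR5 did not pass (log2 fold change -1.08, adjusted p = 0.20). How reads in this region were divided between the strands was not tested.

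PDCD6IP-DT (chromosome 3, 33837180 to 33838442), named as a divergent transcript of PDCD6IP, the gene of an endosomal sorting protein, measured 2.57, 2.09, 2.09, 2.11 and 1.96 RPKM across the controls and 1.14, 1.19, 1.38, 1.25 and 0.770 RPKM across the SRp55 siRNA libraries. The groups did not overlap, and the log2 fold change was -0.81 ± 0.13 (SE) with an adjusted p of 0.012 from limma. PDCD6IP itself was far more abundant, at 116 RPKM ± 37.1 in control against 132 RPKM ± 29.01 in SRp55 siRNA cells (SD, n = 5), with an adjusted p of 0.63. The fourth gene that fell, ENSG00000271830, went from 1.46 ± 0.287 to 0.842 ± 0.170 RPKM (adjusted p = 0.043), and this call was lost without any 1 library except control 4 (0.060 to 0.099).

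The remaining genes that rose lost their calls in some of the fits without 1 library. Over all tested genes the calls fell from 684 to between 259 and 461 in 8 of these 10 fits, and the fold changes of these lncRNA genes kept their direction in all 10. DLEU2L, named for its likeness to the tumour suppressor locus RNA DLEU2 and so possibly sharing reads with it, rose from 1.24 ± 0.662 to 3.10 ± 0.448 RPKM (a log2 change of 1.00 with an adjusted p of 0.019), a call lost without control 2 or 3 (0.0503 in both fits). LINC01806 rose from 3.57 ± 1.02 to 6.56 ± 1.42 RPKM (adjusted p = 0.040), a call kept without control 1 or 4 or SRp55 siRNA 5. LINC02730 rose from 3.07 ± 0.617 to 5.44 ± 1.10 RPKM (adjusted p = 0.026), a call lost without control 3 or 5 or SRp55 siRNA 2, 3 or 4 (0.053 to 0.065). ENSG00000187951, with 9 listed transcripts on chromosome 15, rose from 6.09 ± 0.666 to 9.16 ± 0.949 RPKM (adjusted p = 0.019), a call lost without control 3 or 5 (0.050 to 0.055). Much of the ENSG00000187951 value came from transcripts not typed as lncRNA. In control, ENST00000563110.1, typed as nonsense-mediated decay, held 36.9% of its RPKM. The lncRNA-typed ENST00000602616.2 and ENST00000562954.1 held 13.9% and 4.76%. Other transcripts of this gene are typed as retained intron or as forms of protein-coding, and their part in the rise was not tested. The risers SUCLG2-DT, MAP2K5-DT, PRR29-AS1 and ENSG00000235779 had log2 fold changes of 0.38, 0.26, 0.61 and 0.85 and were lost without 8, 10, 9 and 5 of the 10 libraries in turn.

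The snoRNA host lncRNAs were examined as a group of 16 (of 38 listed names, 21 are in the files). They held 18.04% ± 2.16 of the summed lncRNA RPKM in control against 18.6% ± 1.99 in SRp55 siRNA cells (SD, n = 5). SNHG1 rose (6.25%, background 3.76%), none fell and 15 did not pass. In limma 6 of the 16 had an unadjusted p under 0.05, against 21.9% of all tested genes. Their median log2 fold change was 0.08, against 0 for all tested genes by construction, and 9 of the 16 lay above the median tested gene. No snoRNA host was called with the replicate block, and SNHG1 alone was called on summed reads and under median-of-ratios scaling.

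SNHG1 (chromosome 11, 62619460 to 62623386), which starts divergently from the amino acid transporter gene SLC3A2 and contains 7 snoRNA gene entries in GENCODE, measured 17.4, 20.1, 19.4, 26.7 and 20.5 RPKM across the controls and 39.4, 32.5, 41.3, 26.2 and 29.7 RPKM across the SRp55 siRNA libraries. Only control 4 and SRp55 siRNA 4 overlapped, and these carry the same replicate number. The log2 fold change was 0.57 ± 0.15 (SE), with an adjusted p of 0.034 from limma and 0.062 with the replicate block. The call was kept without control 4, SRp55 siRNA 4 or SRp55 siRNA 5 and lost without any 1 of the other 7 libraries (0.065 to 0.080). SLC3A2 lay at 189 RPKM in control against 224 RPKM in SRp55 siRNA cells, with an adjusted p of 0.54.

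GAS5, a host known to rise when growth stops, measured 75.3, 69.4, 56.0, 121 and 50.4 RPKM across the controls and 52.2, 77.7, 66.4, 75.6 and 42.9 RPKM across the SRp55 siRNA libraries. Control 4 stood above all others and the groups otherwise overlapped (log2 fold change -0.31 ± 0.24 SE, adjusted p = 0.67). SNHG6 measured 71.1, 58.1, 52.3, 103 and 49.5 RPKM across the controls and 95.3, 93.4, 98.5, 95.5 and 64.6 RPKM across the SRp55 siRNA libraries. Its adjusted p was 0.22, and 0.040 without control 4. DANCR, which contains the snoRNA gene SNORA26, lay at 42.2 ± 16.9 RPKM in control against 61.3 ± 8.65 RPKM in SRp55 siRNA cells, with an adjusted p of 0.16 and 0.032 without control 4. MEG8, which contains 46 snoRNA gene entries of the imprinted chromosome 14 cluster, lay at 6.19 ± 2.04 and 9.33 ± 2.19 RPKM, with an adjusted p of 0.15 and 0.044 without control 4. For SNHG6, DANCR and MEG8, control 4 was the only library whose removal gave a call. Without it, 7.96% of all tested genes were called, against 5.02% with every library.

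The levels of these hosts moved together by library. Control 4 was the highest control for 13 of 16 (81.3%), against 47.1% of all tested genes, and SRp55 siRNA 5 was the lowest of its group for 10 of 16 (62.5%), against 49.8%. The same held for control 4 in 22 of 28 protein-coding snoRNA hosts (78.6%), which include ribosomal protein and translation factor genes, and in 11 of 14 genes of snoRNA-binding proteins (78.6%). It was not particular to snoRNA-linked genes. Control 4 was the highest control for 9 of 12 paraspeckle protein genes (75%), and SRp55 siRNA 5 the lowest of its group in 66.7%. Among the 116 lncRNA genes of at least 5 RPKM these shares were 56.9% and 59.5%. The share of the RPKM total assigned to genes differed by library as well: it was 90.9% in control 4, the highest of the controls, and 76.8% in SRp55 siRNA 5, the lowest of its group. The part of these library differences in the values of the hosts was not tested. No protein-coding snoRNA host and no snoRNA-binding protein gene passed in limma, with 6 of 28 and 2 of 14 at an unadjusted p under 0.05, against 21.9% of all tested genes. With the replicate block 2 rose and 1 fell among the 28, and 2 of the 14 rose (background 9.39% higher and 3.7% lower).

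**Figure D4:**
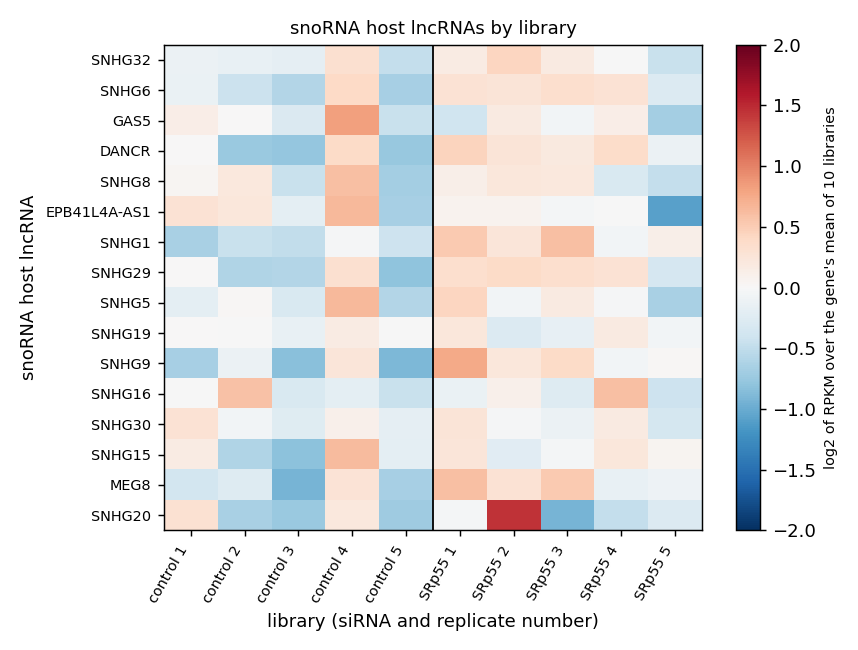
Level of each of the 16 snoRNA host lncRNAs in each library, as log2 of its RPKM over its own mean of 10 libraries (red, above the mean; blue, below). Control 4 is red for most hosts and control 5 and SRp55 siRNA 5 are mostly blue; SNHG1 is below its mean in controls 1, 2, 3 and 5.

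Many snoRNA hosts carry a 5′ terminal oligopyrimidine tract, a C followed by a run of pyrimidines at the start of the RNA, so the listed starts were read from RefSeq promoters (GRCh38.p14) for the 12 hosts matched by symbol. Windows of 30 bases, beginning 10 bases before the listed start, were searched on the gene's strand for a C followed by at least 5 bases C or T, beginning within 10 bases of the start. Such a run was present in 5 of 12 (41.7%), against 20.8% of 35116 promoters, 24.2% of the 240 matched lncRNA genes and 52.2% of 23 matched protein-coding snoRNA hosts. The 5 windows are printed with the run in capitals, to show how its place differs between hosts. A match is a description of these letters and not evidence of use.
SNHG32: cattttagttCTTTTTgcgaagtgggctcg
SNHG8: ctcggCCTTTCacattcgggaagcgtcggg
SNHG29: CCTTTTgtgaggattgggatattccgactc
SNHG19: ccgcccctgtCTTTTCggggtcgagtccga
SNHG16: gggcggtctcgcgttCTTTTCgaggtcggc

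None of these 5 hosts was called, with log2 fold changes of 0.07 for SNHG32, -0.09 for SNHG8, 0.42 for SNHG29, -0.12 for SNHG19 and -0.06 for SNHG16, and the sign changed without 1 library for SNHG32 (SRp55 siRNA 2), SNHG8 (control 4) and SNHG16 (control 2 or SRp55 siRNA 1), and for SNHG16 also with no filter on low genes.

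The microRNA hosts were measured in 20 genes (of 58 in the files whose names match the list), of which 2 rose (10%, background 3.76%), none fell and 18 did not pass. In limma 9 of the 20 had an unadjusted p under 0.05, against 21.9% of all tested genes. Their median log2 fold change was 0.15, and 17 of 20 lay above the median tested gene. With the replicate block 4 rose (background 9.39%), on summed reads 3 rose (background 7.3%), and under median-of-ratios scaling 3 rose (background 3.18%). Beside the 2 called hosts, MIR493HG lay at 6.35 ± 2.33 and 9.87 ± 1.87 RPKM (SD, n = 5), with an adjusted p of 0.13 from limma. It was 0.043 without control 4, the only library whose removal gave a call. MIR17HG, the host of the growth-linked miR-17 to miR-92a cluster, lay at 0.827 ± 0.313 and 1.39 ± 0.406 RPKM (adjusted p = 0.15), and MIR22HG at 3.95 ± 2.12 and 7.54 ± 4.81 RPKM (adjusted p = 0.28). The mature microRNAs were not measured.

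None of the 4 imprinted lncRNAs measured (MEG3, H19, MEG8 and MEG9) passed in limma, although 2 had an unadjusted p under 0.05 (background 21.9%). With the replicate block 1, H19, rose (background 9.39%). DLK1, the growth regulator gene of the MEG3 region, lay at 7.31 and 9.70 RPKM, with an adjusted p of 0.19. A list headed nuclear and chromatin lncRNAs had 5 measured members: NORAD, OIP5-AS1, JPX, MALAT1 and FTX. The heading is loose, since NORAD, the most abundant of the 5, binds its proteins in the cytoplasm. None of the 5 passed in limma, and none had an unadjusted p under 0.05. None was called with the block, on summed reads or under median-of-ratios scaling. MALAT1, an abundant RNA of nuclear speckles where SR proteins gather, lay at 17.0, 20.1, 17.9, 16.6 and 26.0 RPKM across the controls and 15.4, 17.2, 19.5, 15.6 and 22.0 RPKM across the SRp55 siRNA libraries. The groups overlapped throughout, and the log2 fold change was -0.22 ± 0.15 (SE) with an adjusted p of 0.71. NEAT1, the scaffold of paraspeckles, was under the minimum level at 0.387 and 0.333 RPKM and was not tested. Because polyadenylated RNA was sequenced, forms of MALAT1 or NEAT1 without a polyA tail may be missed, and their levels here may be understated. OIP5-AS1, known to bind miR-7, lay at 31.1 ± 4.20 and 37.2 ± 9.76 RPKM, with an adjusted p of 0.48.

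Of the lncRNAs linked to islets and endoderm, 4 were measured (MEG3, MIR7-3HG, LINC01370 and LINC00261) and none passed in limma, with 1 at an unadjusted p under 0.05 (background 21.9%). LINC00261, the neighbour of the endoderm factor gene FOXA2, lay at 6.83 ± 0.934 RPKM in control against 6.75 ± 1.33 RPKM in SRp55 siRNA cells (log2 fold change -0.13, adjusted p = 0.94). LINC01370 varied between 4.91 and 13.3 RPKM across the controls and between 5.86 and 10.9 RPKM across the SRp55 siRNA libraries, and its direction changed with the library left out. Neither NORAD nor GAS5, the 2 measured genes of the stress-linked list, had an unadjusted p under 0.05. Among 12 paraspeckle protein genes none passed, 2 had an unadjusted p under 0.05 (background 21.9%) and 2 rose with the block (background 9.39%).

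The genes whose names mark an antisense or divergent partner could be set beside that partner in 117 pairs, 56 antisense and 61 divergent. The partner was the more abundant of the pair in 97. In 5 pairs (4.27%) the lncRNA was called and in 10 (8.55%) the partner was, beside 5.02% of all tested genes, and in none were both, without the block. The log2 fold changes of lncRNA and partner had a Pearson r of 0.42 and a Spearman rho of 0.27 over the 56 antisense pairs, which include the outlying SSTR5 pair, and an r of -0.11 and a rho of -0.06 over the 61 divergent pairs. This describes pairs that share libraries and, for overlapping genes, possibly reads. The changes lay on the same side of the median tested gene in 37 of 56 antisense and 33 of 61 divergent pairs. FOXD1, a forkhead transcription factor gene, rose (log2 fold change 0.39, adjusted p = 0.030) beside FOXD1-AS1 at 0.33 (adjusted p = 0.059, and 0.041 with the replicate block). MAP3K9, a kinase gene, fell (-0.51, adjusted p = 0.027) beside MAP3K9-DT at 0.24 (adjusted p = 0.27). PRKCQ, a protein kinase C gene, rose (0.40, adjusted p = 0.037) beside PRKCQ-AS1 at 0.82 (adjusted p = 0.074, and 0.015 on summed reads). These 3 pairs were chosen after their values were seen.

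**Figure D5:**
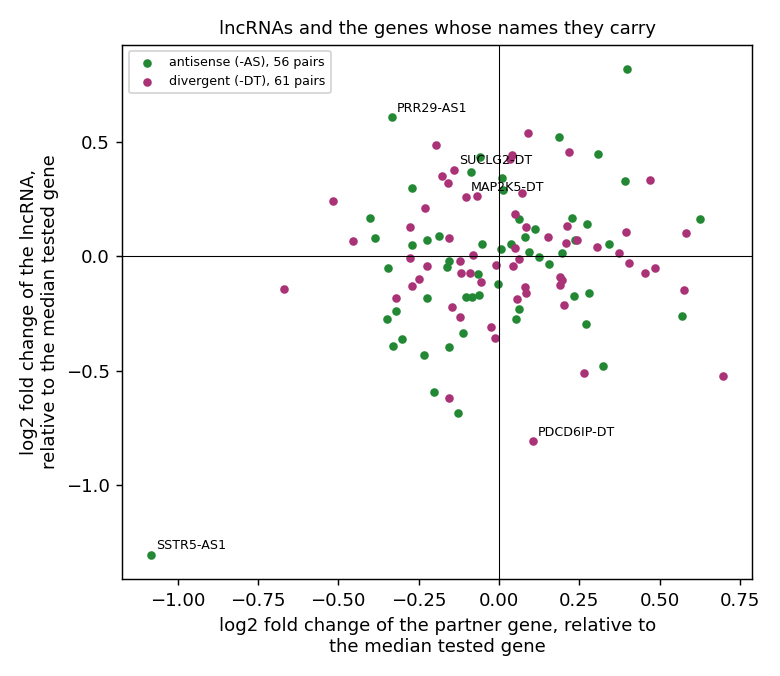
Log2 fold change of each named lncRNA (vertical axis) and of the gene whose name it carries (horizontal axis), both relative to the median tested gene, for 56 antisense and 61 divergent pairs; the 5 called lncRNAs are labelled. SSTR5-AS1 and SSTR5 lie together at the lower left (-1.31 and -1.08), and PDCD6IP-DT lies at -0.81 with its partner at 0.11.

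SRp55 acts in splicing, so the share of each gene's RPKM held by each listed transcript was tested as well. Of 135 lncRNA genes with at least 2 transcripts above the limits, 0 passed in limma's diffSplice test and moved by 10 points of usage or more, against 0.343% of the 9919 genes tested (34 genes). With no adjustment, 9 of the 135 (6.67%) had a p under 0.05, against 8.25% of all genes tested for usage. SNHG1 had the lowest p. Its transcript ENST00000537925.1 held 59.7%, 55.6%, 31.6%, 39.6% and 45.9% of the gene's RPKM in control against 36.9%, 27.9%, 2.03%, 33.2% and 22.1% in SRp55 siRNA libraries. The control shares were mostly higher, with control 3 below SRp55 siRNA 1 and 4. The shift from 46.5% ± 11.5 to 24.4% ± 13.7 (SD, n = 5) had an adjusted p of 0.13, and 0.044 without control 4. Another SNHG1 transcript, ENST00000537869.1, held 3.92% ± 1.99 in control against 18.4% ± 9.49 in SRp55 siRNA cells, and every SRp55 siRNA library (6.25% to 28.0%) lay above every control (1.06% to 5.54%). This transcript was chosen among those of SNHG1 after its values were seen, and the gene did not pass. Shares also varied widely within a group: ENST00000539921.1 of SNHG1 ran from 2.47% to 38.2% across the controls.

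LINC00847 had a transcript, ENST00000508309.1, at 12.1% ± 11.5 in control against 39.5% ± 19.7 in SRp55 siRNA cells, with an adjusted p of 0.22 for the gene and 0.028 without SRp55 siRNA 3. NUTM2B-AS1 had an adjusted p of 0.44, and 0.030 without SRp55 siRNA 5. No lncRNA gene passed in any other alternative of the usage test. Because 42.9% of the lncRNA genes have a single listed transcript and most of the rest are low, this test covered 135 of the 534. In bulk RNA, fewer cells with a transcript and less of it per cell cannot be told apart.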

How the data were processed

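PolyA RNA of 5 control siRNA and 5 SRp55 siRNA preparations of EndoC-βH1 cells was sequenced on a HiSeq 2000, and RNA integrity numbers were 7.5 or above, per the labels' protocols. TopHat and GRCh37/hg19 are named in the submitters' processing notes. The sources used here name no quantifier, annotation release or strand setting. The deposited files give each transcript an estimated count of reads, a length and an RPKM. The reads are estimates, so no count test was run. Gene types and symbols came from GENCODE 44, in which 1328 of 26346 gene IDs had no entry, and sequences came from RefSeq tables (GRCh38.p14, matched by symbol).

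Transcript RPKM were summed per gene and tested with limma 3.58.1 (R 4.3.3, trend and robust) as log2(RPKM + 0.5), over the 13630 genes averaging 0.5 RPKM or more, with Benjamini-Hochberg adjustment and a threshold of 0.05. Transcript usage was tested with limma's diffSplice for transcripts of at least 0.5 RPKM and 5% of their gene. Both tests were checked on simulated data, and diffSplice gave false calls where transcripts of a gene differed in spread. Alternatives were other pseudocounts, filters, scaling, summed reads, the replicate block and leaving out each library. The replicate numbers, taken from the titles, were used to pair the libraries, although the titles do not state a pairing. Deviations from the group means correlated at 0.128 to 0.414 within the 5 pairs and at -0.174 to 0.121 between different numbers. The value of pair 2 (0.128) was close to that of control 2 with SRp55 siRNA 3 (0.121), so a pairing is not shown for every number. Estimated reads on genes ranged from 61.9 M to 189.8 M per library.

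The lncRNA genes and lists were chosen with earlier results of these data known. Named are the 15 most abundant, called genes at 2 RPKM or more whose groups do not overlap (up to 10 in each direction), called and the 3 most abundant members of each list, SNHG1, GAS5, MALAT1, NEAT1, MEG3 and MIR7-3HG. The other names were chosen after their values were seen. PLUT and ZFAS1 were not analysed here.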

Additional observations from a re-analysis of the deposited data

Results flagged for a closer look

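In 98 groups of 5 values (49 named lncRNA genes, both siRNAs), 11 had 1 library set apart from the other 4 by more than 0.71 of the group's range (Dixon's test). Chance gives about 1 in 20 where groups are independent. These groups share the same 10 libraries. Of the 49 genes, 27 were named by the rule and the others after their values were seen. The 11 therefore cannot be weighed against that rate. In the SRp55 siRNA group, library 5 stood apart for 3 genes. MEG3 was at 300.7 RPKM there, against 130 to 159 RPKM in the other 4. SNHG6 was at 64.6 RPKM, against 93.4 to 98.5 RPKM, and SNHG29 at 21.6 RPKM, against 33.1 to 35.6 RPKM. Both of these are snoRNA hosts, and library 5 was low for them while MEG3 was high.

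SRp55 siRNA library 4 stood apart for 3 genes, all high. H19 was at 131.7 RPKM, against 53.4 to 72.2 RPKM, DSCR8 at 70.6 RPKM, against 47.8 to 51.3 RPKM, and LINC00261 at 9.11 RPKM, against 5.90 to 6.39 RPKM. LINC00667 was high in SRp55 siRNA library 1, at 60.1 RPKM against 39.8 to 43.1 RPKM, and DLEU2L was low in library 3, at 2.32 RPKM against 3.12 to 3.38 RPKM.

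Control library 1 was high for 3 genes. ENSG00000261720 was at 11.8 RPKM, against 3.80 to 6.005 RPKM, PDCD6IP-DT at 2.57 RPKM, against 1.96 to 2.11 RPKM, and MIR22HG at 7.65 RPKM, against 2.46 to 3.66 RPKM. The first 2 of these are among the called genes that fell. PDCD6IP-DT kept its call without control 1, and ENSG00000261720 lost it.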

How the results depend on the processing

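The count of 20 called lncRNA genes was 20 with pseudocounts of 0.1 and 1, 15 with a minimum of 1 RPKM, 16 with no filter, 30 with median-of-ratios scaling and 21 without limma's trend and robust options. It was 63 on summed reads and 48 with the replicate block, and 9 to 35 when each library was left out in turn (35 without control 4, 9 without control 3); the cause was not tested. The transcript usage count of 0 became 1 without control 4, SRp55 siRNA 3 or SRp55 siRNA 5 and was 0 in every other alternative, the replicate block included. Over the 49 named genes, 878 gene values were recomputed: 756 kept their direction and side of the threshold, 90 lost a call, 16 gained one and 16 changed sign. The replicate block ended the call of SNHG1 and gave calls to H19, ZNF667-AS1 and FOXD1-AS1. On summed reads MIR7-3HG, ZNF667-AS1, LINC00958 and PRKCQ-AS1 gained a call. No gene that changed sign was called. With each library left out in turn, the log2 fold change ranged from -0.38 to 0.036 for MEG3, -0.021 to 0.16 for SNHG32, -0.055 to 0.22 for DSCR8, -0.21 to 0.024 for SNHG8, -0.011 to 0.19 for OIP5-AS1, -0.20 to 0.12 for SNHG16 and -0.10 to 0.17 for LINC01370. SNHG16 was also 0.018 with no filter. The depth limits the lowest genes most: LINC01497 had a mean of 19.1 estimated reads in control libraries.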
